A study of Mus musculus with 12 samples.

Results

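The regulators described here are 10 genes whose products switch on nuclear genes for mitochondria or, for Tfam, act on mitochondrial DNA. These are Ppargc1a, Ppargc1b, Ppara, Ppard, Esrra, Esrrb, Esrrg, Nrf1, Gabpa and Tfam. They were picked by symbol, for their known role, from the 24421 genes counted. All 10 had enough reads to be tested, among 12252 genes that did. In Glut1 transgenic hearts, transcripts of Ppargc1a, Ppargc1b and Ppard were higher in Tnnt2low than in Tnnt2high cardiomyocytes, by 1.30, 1.58 and 1.77 times, in a test that called 16.7% of all genes. With the heart as a block Ppara, Esrrb and Esrrg were called as well, and with an offset for transcript length and GC content Ppargc1b alone. In WT hearts, between the genotypes and in the interaction no regulator was called, and neither was more than 1 of all 12252 genes in any of these tests.

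The data are RNA-seq of cardiomyocytes from mouse hearts on a CD1 background at Postnatal Day 1, in 12 libraries. The cells were sorted alive by Mitotracker signal and by a YFP reporter of the cardiac lineage. Tnnt2low denotes the Mitotracker-high and Tnnt2high the Mitotracker-low population, so that no antibody to Tnnt2 entered this sort. The comparison asks how raised glucose uptake and the population bear on expression. The Glut1 transgenic groups (4 libraries of each population) carried aMHC-hGLUT1tg, which drives human GLUT1 from a cardiomyocyte promoter, together with aMHC-Cre tg and the R26+/YFP reporter. The other groups (2 libraries of each population) are labelled wild type and, by the methods of the study, carried the same Cre and reporter without the GLUT1 transgene. The labels tie each Glut1 transgenic replicate to 1 heart that gave both populations, whereas both WT replicates bear the same heart number and may come from 1 heart. The spread between WT replicates may thus be only technical. Because the test was 1 fit of all 12 libraries, p-values for WT rest on a spread pooled with the Glut1 transgenic hearts. They may not reflect how WT hearts differ from each other.

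Gene reads numbered 7301762 to 9815069 per library in Glut1 transgenic Tnnt2low, 4065306 to 5241475 in Glut1 transgenic Tnnt2high and 4975085 to 7483520 in WT libraries. The 8 cardiomyocyte markers summed to between 117780 and 151420 CPM in every library, so markers of the labelled cell type were abundant throughout. CPM are reads of a gene scaled to the library's total over the genes tested, adjusted by the TMM method. Single markers moved apart between the Glut1 transgenic populations, with 1 called higher in Tnnt2low cells and 3 lower. Ryr2 was higher (0.61 on the log2 scale, adjusted p = 0.00375 in edgeR's test). Tnnt2, Tnni3 and Myl2 were lower (-0.42, -0.82 and -0.91, adjusted p = 0.00723, 0.00198 and 0.00130). Tnnt2 itself averaged 13420 CPM (SD 632, n = 4) in Tnnt2low against 17956 CPM (SD 2275, n = 4) in Tnnt2high libraries of Glut1 transgenic hearts. In WT hearts the means were 16236 CPM (SD 699.5, n = 2) against 16728 CPM (SD 669.6, n = 2), a gap within their spread. Slc2a1, the mouse gene for GLUT1, ranged from 33.5 to 92.5 CPM in Glut1 transgenic and from 13.3 to 28.9 CPM in WT libraries, and whether reads of the human transgene were counted for it was not tested.

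Mitochondrial proteins are mostly encoded in the nucleus, and their genes are switched on by a small set of transcription factors that share coactivators. PGC-1α and PGC-1β, encoded by Ppargc1a and Ppargc1b, bind no DNA themselves and are docked by nuclear receptors of the PPAR and ERR families, which direct genes of fatty acid oxidation and of the respiratory chain, and by NRF1. NRF1 and GABP (NRF2) bind promoters of respiratory chain genes and of Tfam, whose product packages mitochondrial DNA and acts in its transcription and maintenance. In the heart this circuit is known for the switch around birth from glucose towards fatty acids as fuel.

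The sequences upstream of 4 regulators are shown, for 2 of the genes that differed between populations and for the 2 that held a motif of NRF1 or GABP. They were taken from RefSeq on GRCm38.p6 (mm10), whose promoter windows run from 250 bases before to 50 bases after a transcript start, and 9 of the 10 regulators had such windows (14 in all). Both strands were searched for the NRF1 motif (its palindromic core), the GABP motif CCGGAAGT, the ERR motif NAAGGTCA and the cyclic AMP response half-site TGACGT. Capitals mark a motif, and each sequence reads 5′ to 3′ on the strand of its gene. For Ppargc1a and Ppard the bases outside the annotated gene were printed (chr5:51567727-51567875, minus strand, and chr17:28232604-28232699, plus strand), and for Ppara and Tfam 30 bases around the motif, which lie within the annotated span of the gene (chr15:85735735-85735764, plus strand, and chr10:71238073-71238102, minus strand).
Ppargc1a: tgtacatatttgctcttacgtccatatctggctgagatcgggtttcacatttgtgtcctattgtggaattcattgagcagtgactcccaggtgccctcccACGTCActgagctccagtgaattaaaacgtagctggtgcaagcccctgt
Ppard: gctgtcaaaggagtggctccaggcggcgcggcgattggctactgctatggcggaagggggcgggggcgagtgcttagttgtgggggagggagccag
Ppara: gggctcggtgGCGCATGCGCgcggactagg
Tfam: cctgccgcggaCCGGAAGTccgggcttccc

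The half-site TGACGT lay 50 to 45 bases before the start of Ppargc1a, on the opposite strand, and in no other regulator, while 8.37% of all 27025 genes with a window held it. The NRF1 motif lay 31 to 22 bases before the start of Ppara, against 5.19% of all genes, and the GABP motif 47 to 40 bases before that of Tfam, against 4.31%. No window of the 9 regulators held the ERR motif, which 5.36% of all genes did. A match shows the letters, not that a factor binds there.

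Transcripts of the coactivators were the most abundant of the 10 per length of gene. On the scale of CPM per kilobase of exon, where levels of different genes can be compared, Ppargc1b averaged 33.1 over the 12 libraries and Ppargc1a 28.0, followed by Esrra at 19.1, Gabpa at 16.6, Tfam at 11.4 and Ppara at 9.91, as means over groups whose levels differ. Esrrg averaged 7.2 and Esrrb 3.39, and Nrf1 and Ppard closed the order at 1.95 and 1.87. In both Tnnt2low groups the group means put Gabpa above Esrra, Ppara above Tfam and Ppard above Nrf1, and in both Tnnt2high groups the reverse. Of the 9 pairs of neighbours in a group's own order, the ranges of all 9 overlapped among Glut1 transgenic Tnnt2high libraries, so that no neighbours there differed beyond their spread. In Glut1 transgenic Tnnt2low libraries, Ppargc1b stood clear of Ppargc1a, Ppargc1a clear of Gabpa, Tfam clear of Esrrg and Esrrg clear of Esrrb.

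**Figure D1:**
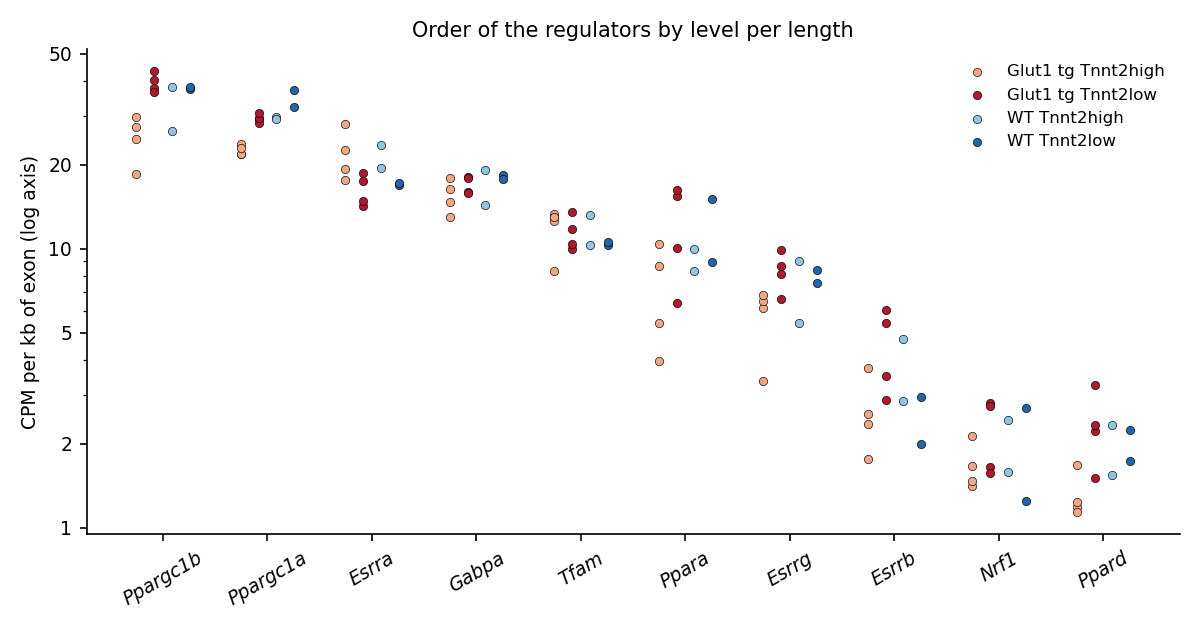
Level of each regulator per length in the 12 libraries. The y axis is CPM per kilobase of exon on a log scale, and each point is 1 library, coloured by group. Both coactivators lie at the top, with Ppargc1b between 18.6 and 43.2, and Nrf1 and Ppard at the bottom.

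On mm10, Ppargc1a spans chr5:51454250-51567726 (minus strand), Ppara chr15:85734983-85802819 (plus), Ppard chr17:28232700-28301474 (plus), Esrra chr19:6910977-6921813 (minus) and Esrrb chr12:86361117-86521628 (plus). Esrrg spans chr1:187608791-188214885 (plus), Nrf1 chr6:30047988-30153458 (plus), Gabpa chr16:84834925-84863779 (plus) and Tfam chr10:71225464-71238280 (minus). Reads over all annotated exons of a gene, untranslated ones included, were summed.

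The next values are levels in CPM, again scaled by the TMM method, which serve comparisons of 1 gene between libraries. Ppargc1a, which encodes the coactivator PGC-1α, rose in Tnnt2low cardiomyocytes of Glut1 transgenic hearts. It stood at 192, 186, 195 and 202 CPM in the Tnnt2low libraries of replicates 1 to 4 and at 144, 156, 144 and 151 CPM in the Tnnt2high libraries of the same hearts. The groups did not overlap, and the spread within each was small. On the log2 scale the difference was 0.38 with a standard error (SE) of 0.10, and it passed edgeR's quasi-likelihood test, fitted across all genes (adjusted p = 0.0217). Leaving out 1 library at a time ended this call in 4 of 12 cases (Tnnt2low replicates 1, 3 and 4 and Tnnt2high replicate 1 of Glut1 transgenic hearts, adjusted p = 0.0505 to 0.0564 in the edgeR test), and so did the offset for length and GC content (0.29, adjusted p = 0.114). In WT hearts, Ppargc1a stood at 245 and 212 CPM in Tnnt2low and at 195 and 192 CPM in Tnnt2high libraries, which did not overlap either. Of all genes, 30.2% did not overlap between the WT populations, 15.3% with Tnnt2low higher and 14.9% with it lower. The WT log2 fold change of 0.24 (SE 0.14) did not pass (adjusted p = 1 in the same edgeR test).

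Ppargc1b, which encodes the related coactivator PGC-1β, rose further. In Glut1 transgenic hearts it stood at 151, 160.1, 146 and 172 CPM in Tnnt2low and at 74.1, 98.3, 109 and 118 CPM in Tnnt2high libraries. Every Tnnt2low library was above every Tnnt2high library, and within hearts the ratio ran from 1.34 to 2.03. The difference was 0.66 on the log2 scale (SE 0.15, adjusted p = 0.0109 in the edgeR test), and the call held in all 12 omissions of 1 library. In WT hearts, the Tnnt2low libraries gave 149 and 152 CPM and the Tnnt2high libraries 106 and 151 CPM. The 1.41-fold difference in WT replicate 1 was thus absent in WT replicate 2, whose libraries were 1.00-fold apart, and the WT log2 fold change was 0.23 (SE 0.22, adjusted p = 1 in the edgeR test).

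Ppard encodes PPARδ, a fatty acid receptor found in most tissues, and was on average the least abundant regulator per length. Its Glut1 transgenic Tnnt2low libraries held 11.3, 16.7, 17.5 and 24.4 CPM and the Tnnt2high libraries 8.88, 9.31, 12.6 and 8.54 CPM. The groups overlapped, since Tnnt2low replicate 1 lay below Tnnt2high replicate 3. The log2 fold change of 0.83 (SE 0.27) passed the threshold narrowly (adjusted p = 0.0494 in the edgeR test). It kept the call in 4 of 12 omissions of 1 library and lost it without Tnnt2low replicates 2, 3 or 4, Tnnt2high replicates 1, 2 or 4 or either WT Tnnt2low library, with adjusted p up to 0.138. The offset ended it too (0.60, adjusted p = 0.207 in the edgeR test). In WT hearts, 16.8 and 13.0 CPM stood against 17.5 and 11.6 CPM, a log2 fold change of 0.04 (SE 0.37).

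These 3 genes were the regulators called in this comparison without the pairing of libraries by heart (6 with it), all higher in Tnnt2low cells, where 8.42% of the 12252 genes tested were called higher and 8.33% lower. Leaving out 1 library gave between 1 call (without Glut1 transgenic Tnnt2low replicate 3 or 4 or Tnnt2high replicate 1) and 5 calls (without Tnnt2high replicate 3). Of all genes, the fits with 1 call called 1483 of 12148, 1670 of 12139 and 1237 of 12242, in the same order. The fit with 5 calls called 1906 of 12229, and the fit of all libraries 2052 of 12252. A two-sided exact permutation test gave p = 0.0286 for Ppargc1a and for Ppargc1b, the smallest that 4 against 4 allow, and p = 0.0571 for Ppard. It shuffled libraries without regard to the heart, so it took 2 libraries of the same heart as unrelated. Before adjustment, 7 regulators were under 0.05 in edgeR's test, as were 3798 of all genes. The median log2 fold change of the 10 was 0.47, beside -0.01 over all genes tested. Libraries of Ppargc1a and Ppargc1b were the ones that did not overlap, against 11.2% of all genes in that direction and 10.9% in the other.

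**Figure D2:**
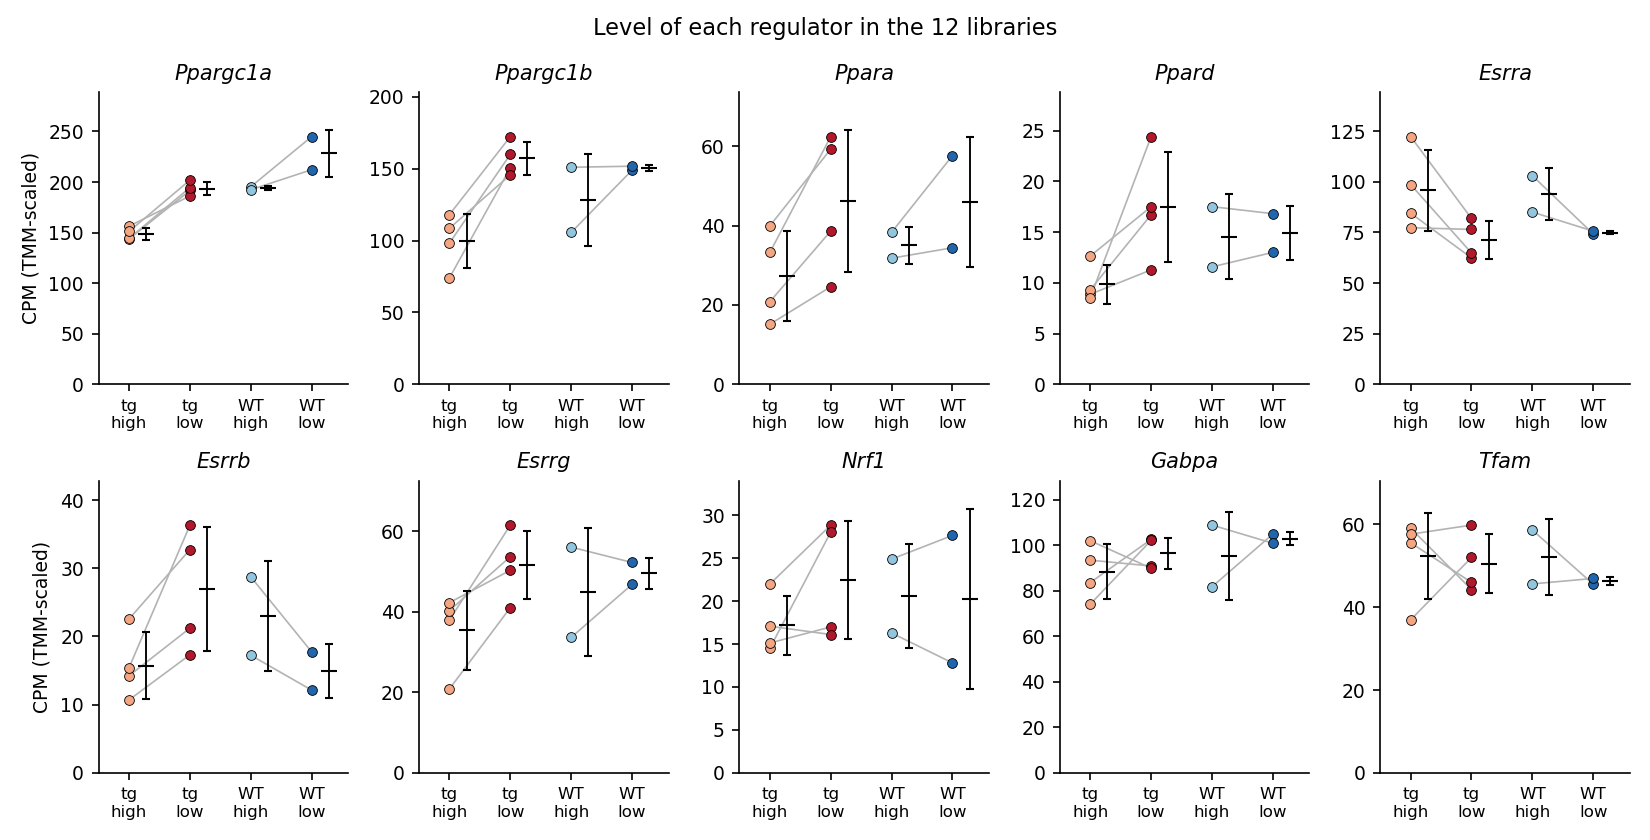
Level of each regulator in the 12 libraries. The y axes are CPM and start at 0, each point is 1 library, grey lines join the libraries of same-numbered pairs, and black bars beside the points are the mean and SD of the group (n = 4 for Glut1 transgenic, tg, and n = 2 for WT). In Glut1 transgenic hearts Ppargc1a and Ppargc1b are higher in every Tnnt2low library than in any Tnnt2high library.

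The receptor PPARα, encoded by Ppara, drives fatty acid oxidation in the heart, and its transcript differed more between hearts than between populations. In Glut1 transgenic hearts it stood at 24.6, 38.6, 59.3 and 62.4 CPM in Tnnt2low and at 15.1, 20.8, 39.9 and 33.2 CPM in Tnnt2high libraries. The groups overlapped, yet Tnnt2low was the higher in each of the 4 hearts, by 1.48 to 1.88 times. Its log2 fold change of 0.76 (SE 0.32) did not pass without regard to the heart (adjusted p = 0.120 in the edgeR test), and passed once the heart was a block (0.77, SE 0.16, adjusted p = 0.00745). In WT pairs, 57.6 CPM stood against 38.3 CPM and 34.4 CPM against 31.8 CPM, a log2 fold change of 0.40 (SE 0.45, adjusted p = 1 in the edgeR test).

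The 3 estrogen-related receptors, orphan receptors that act with PGC-1 on respiratory chain genes, did not move as 1 group. Esrrg, known in the heart for oxidative metabolism after birth, stood at 61.5, 53.7, 41.0 and 50.3 CPM in Glut1 transgenic Tnnt2low and at 37.9, 40.3, 20.8 and 42.2 CPM in Tnnt2high libraries. Only Tnnt2low replicate 3 lay within the range of the Tnnt2high libraries. The log2 fold change was 0.55 (SE 0.22, adjusted p = 0.104 in the edgeR test), and with the heart as a block it was 0.58 (SE 0.17, adjusted p = 0.0312). WT pairs gave 46.8 CPM against 33.6 CPM and 52.2 CPM against 56.0 CPM, in opposite directions.

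Esrrb, best known from pluripotent stem cells, gave 17.3, 21.2, 32.7 and 36.3 CPM in Glut1 transgenic Tnnt2low and 10.7, 14.2, 22.6 and 15.4 CPM in Tnnt2high libraries. Here too Tnnt2low was the higher within all 4 hearts, although the groups overlapped. Its log2 fold change was 0.77 (SE 0.29, adjusted p = 0.0864 in the edgeR test), and 0.76 (SE 0.20, adjusted p = 0.0223) with the heart as a block. In WT hearts Esrrb went the other way, with 17.7 CPM in Tnnt2low against 28.7 CPM in Tnnt2high and 12.1 CPM against 17.2 CPM. The WT log2 fold change was -0.62 (SE 0.41, adjusted p = 1 in the edgeR test). The difference between the genotypes' fold changes was 1.39 (SE 0.51), with an unadjusted p of 0.0155 and an adjusted p of 0.961 in the edgeR test.

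Esrra, the family member most widely tied to PGC-1α, was the only regulator that was lower in Tnnt2low cells of every heart. It stood at 62.4, 81.9, 76.5 and 64.8 CPM in Glut1 transgenic Tnnt2low and at 84.6, 122, 77.4 and 98.7 CPM in Tnnt2high libraries. In replicate 3 both libraries were nearly level, and the groups overlapped. A log2 fold change of -0.42 (SE 0.16) missed the threshold in edgeR's test (adjusted p = 0.0809) and passed in DESeq2 (-0.44, adjusted p = 0.0435, where 11.1% of genes were called higher and 11.5% lower) and without Tnnt2high replicate 3 (-0.51, adjusted p = 0.0417 in edgeR's test). Without that library Esrrb passed too (1.00, adjusted p = 0.0404). In WT hearts, 74.3 and 75.7 CPM in Tnnt2low did not overlap with 103 and 85.1 CPM in Tnnt2high libraries, at a log2 fold change of -0.33 (SE 0.22, adjusted p = 1 in the edgeR test). Of Esrra's exons, 3.74% of the length overlapped those of other genes, chiefly Trmt112 on the opposite strand, and whether the counting used strand is not given in the sources used here.

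Nrf1, Gabpa and Tfam, the factors closest to the respiratory chain and to mitochondrial DNA, gave no call in any comparison under any alternative run. Nrf1 ranged from 16.1 to 28.9 CPM in Glut1 transgenic Tnnt2low and from 14.5 to 22 CPM in Tnnt2high libraries, and from 12.8 to 27.7 CPM in the WT libraries. Its log2 fold change in Glut1 transgenic hearts was 0.39 (SE 0.29, adjusted p = 0.386 in the edgeR test). Gabpa, the DNA-binding subunit of GABP, lay between 89.8 and 102 CPM in Glut1 transgenic Tnnt2low and between 74.0 and 102 CPM in Tnnt2high libraries.

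For Gabpa the log2 fold change was 0.13 (SE 0.14, adjusted p = 0.576 in the edgeR test), and 6.98% of its exon length overlapped Atp5j on the opposite strand. Tfam stood at 44.3, 46.0, 52.0 and 59.9 CPM in Glut1 transgenic Tnnt2low and at 59.1, 55.6, 36.9 and 57.7 CPM in Tnnt2high libraries. Its hearts went both ways, with Tnnt2low lower in replicates 1 and 2 and higher in replicates 3 and 4. Its log2 fold change was -0.05 (SE 0.17, adjusted p = 0.872 in the edgeR test), with ratios from 0.749 to 1.41 within hearts. In WT hearts Tfam ranged from 45.6 to 58.7 CPM over the 4 libraries.

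**Figure D3:**
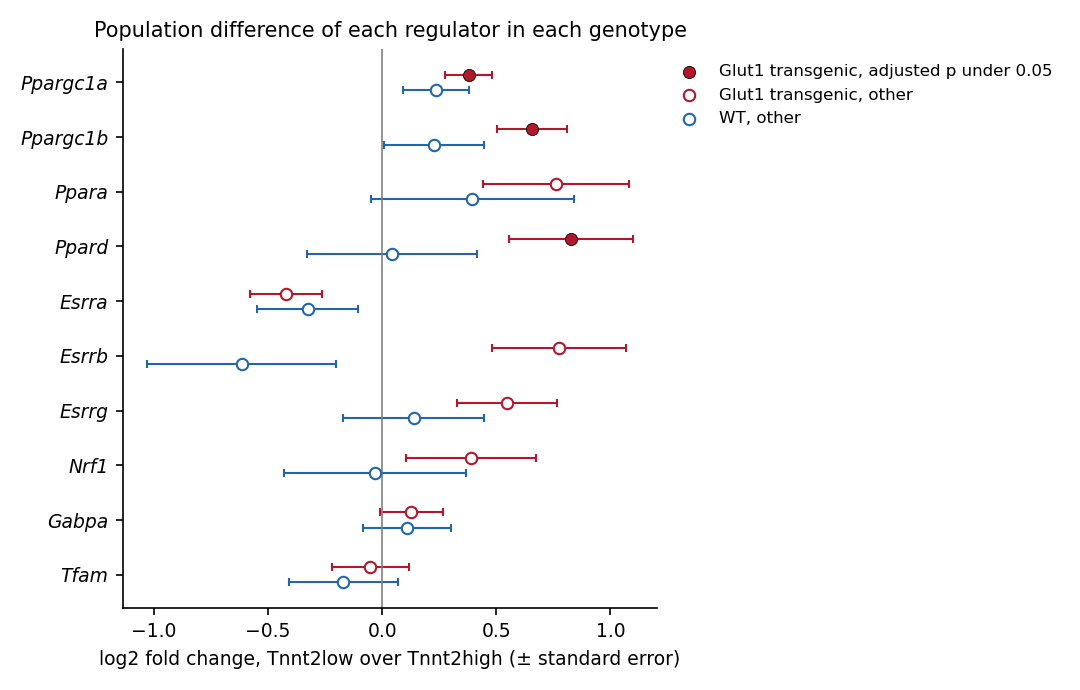
Log2 fold change of each regulator between Tnnt2low and Tnnt2high cardiomyocytes, in Glut1 transgenic (red) and WT hearts (blue). Points are fold changes from edgeR's test with bars of 1 standard error, filled where the adjusted p is under 0.05. Ppargc1a, Ppargc1b and Ppard are filled in Glut1 transgenic hearts, and Esrrb lies at 0.77 in Glut1 transgenic and -0.62 in WT hearts.

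Set against their own hearts, 6 regulators (Ppargc1a, Ppargc1b, Ppara, Ppard, Esrrb and Esrrg) were higher in Tnnt2low cells of all 4 Glut1 transgenic hearts, where 20.3% of all genes tested were. Esrra was lower in all 4, as were 19.1% of all genes. The same 6 genes were called with the heart as a block, in a fit that called 9.83% of all genes higher and 9.25% lower. An offset for transcript length and GC content cut the called genes to 2.14% higher and 2.95% lower. Under it Ppargc1b kept its call (0.63, adjusted p = 0.0402 in edgeR's test) while Ppargc1a and Ppard lost theirs. With both the block and the offset, Ppargc1b and Ppara were called, where 3.6% of all genes were called higher and 4.4% lower.

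**Figure D4:**
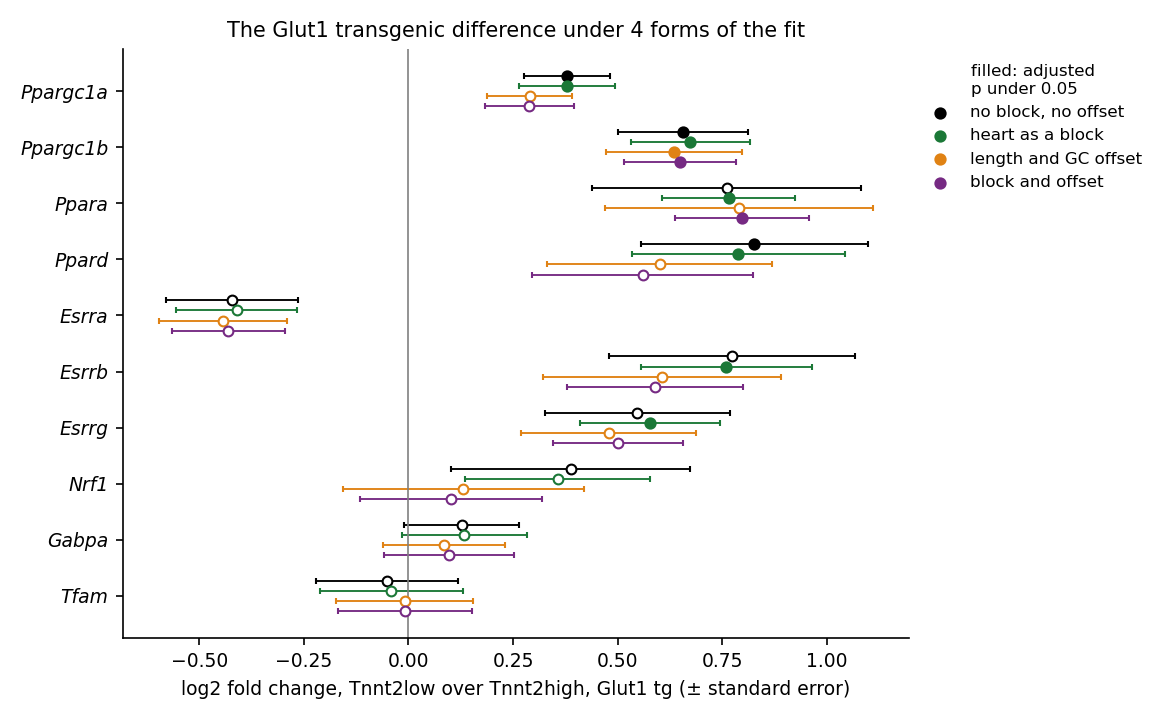
Log2 fold change of each regulator between Tnnt2low and Tnnt2high cardiomyocytes of Glut1 transgenic hearts in 4 forms of edgeR's fit. Bars are 1 standard error and filled points have an adjusted p under 0.05. Ppargc1b is filled in all 4 forms, and Nrf1, Gabpa, Tfam and Esrra in none.

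The length of transcripts and the make-up of the libraries moved with this comparison. Reads outside every exon numbered 0.886 to 1.07 per gene read in Glut1 transgenic Tnnt2low and 2.26 to 2.63 in Tnnt2high libraries, against 1.13 to 1.5 and 1.51 to 1.83 in WT libraries. The 8 fibroblast and matrix markers summed to 46.4 to 99.8 CPM in Glut1 transgenic Tnnt2low and 149 to 898 CPM in Tnnt2high libraries, with 5 of the 8 called lower. The 8 endothelial markers summed to 8.41 to 75.1 CPM and 29.1 to 245 CPM, with none called (6 at an unadjusted p under 0.05 in edgeR's test). The 6 smooth muscle and pericyte markers summed to 826 to 1033 CPM and 986 to 1564 CPM, with 1 called lower. Leukocyte markers summed to at most 9.48 CPM and the 6 erythroid markers to at most 8.04 CPM in any library. The 4 globin genes among the erythroid markers were at 0 in all 12, and whether the counting could assign reads to them was not tested. In such sums, fewer cells of a type and less RNA per cell cannot be told apart, and the part of these values in the regulators' differences was not tested.

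Between the genotypes, no regulator was called in either population, in tests that called 0.00816% of genes (1 of 12252) in Tnnt2low and 0% in Tnnt2high cells. Before adjustment, edgeR's test put under 0.05 a total of 256 genes between genotypes in Tnnt2low and 650 in Tnnt2high, and DESeq2 called none of the regulators either. Ppargc1a came nearest. Its 4 Glut1 transgenic Tnnt2high libraries, at 144 to 156 CPM, all lay below both WT libraries, at 192 and 195 CPM. The log2 fold change of Glut1 transgenic over WT was -0.38 (SE 0.12, unadjusted p = 0.00784, adjusted p = 0.899 in edgeR's test). In Tnnt2low cells the Glut1 transgenic libraries, at 186 to 202 CPM, again all lay below the WT libraries, at 212 and 245 CPM, at -0.24 on the same scale (SE 0.12, adjusted p = 1 in the edgeR test). The Glut1 transgenic Tnnt2low level of Ppargc1a, 194 ± 6.56 CPM (SD, n = 4), was thus at that of WT Tnnt2high cells, 194 ± 2.10 CPM (SD, n = 2).

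Such separation of 4 libraries from 2, with Glut1 transgenic lower, was found for 6.02% of all genes in Tnnt2low and 6.12% in Tnnt2high cells, and with Glut1 transgenic higher for 5.39% and 5.9%. A two-sided exact permutation test of Ppargc1a gave p = 0.133 in each population (the smallest that 4 libraries against 2 allow in this test). In Tnnt2high cells 8 of the 10 regulators were lower in Glut1 transgenic hearts, at a median of -0.36 (log2) beside -0.0039 over all genes. In Tnnt2low cells 7 of 10 were higher, with a median of 0.06 beside 0.0035. Esrrb stood 0.85 higher on the log2 scale in Glut1 transgenic than in WT Tnnt2low cells (SE 0.37, unadjusted p = 0.0357, adjusted p = 1 in edgeR's test), the other regulator under an unadjusted p of 0.05 in these comparisons. The tests of the populations within WT and of the interaction called 0% of genes (381 and 554 at an unadjusted p under 0.05 in edgeR's test).

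Around the regulators, 4 lists of genes were counted in the Glut1 transgenic comparison of populations, where 16.7% of all genes tested were called. Among 29 partners and upstream regulators, 9 were called higher and 0 lower in Tnnt2low cells. By direction alone 25 were higher and 4 lower, and the median of the list was 0.39 on the log2 scale. The 4 with the smallest p were Ncoa1 (0.80, adjusted p = 0.00337 in edgeR's test) and Ncor1 (0.68, adjusted p = 0.00341), a coactivator and a corepressor of nuclear receptors, the AMPK catalytic subunit Prkaa2 (0.60, adjusted p = 0.00480) and the muscle transcription factor Mef2d (0.64, adjusted p = 0.00510). The acetyltransferases Crebbp and Ep300, the Mediator subunit Med1 and the PGC-1 interactor Hcfc1 were among the others. The coactivator Ncoa1 and the corepressor Ncor1 thus rose side by side.

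Of 21 genes for transcription and replication of mitochondrial DNA, 0 were called higher and 1 lower (6 and 15 by direction alone). The gene called was Slirp (-1.03, adjusted p = 0.0381 in edgeR's test), whose product stabilizes mitochondrial mRNA. Its call ended in 5 of 12 omissions of 1 library (Glut1 transgenic Tnnt2low replicates 1, 2 and 3 and Tnnt2high replicates 1 and 2, adjusted p = 0.0742 to 0.112). Polrmt, the mitochondrial RNA polymerase, stood at 48.6 CPM in Tnnt2high and 47.5 CPM in Tnnt2low libraries of Glut1 transgenic hearts, and Polg, the polymerase of mitochondrial DNA, at 49.5 and 46.1 CPM. The median of the list was -0.24.

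Of 22 genes known as targets of PPAR and ERR, 1 was called higher and 6 lower in Tnnt2low cells. By direction alone 3 were higher and 19 lower, at a median of -0.36. Lpl, the lipoprotein lipase, rose (0.36, adjusted p = 0.0436 in edgeR's test), a call lost with the heart as a block (adjusted p = 0.0542). Fabp3, the heart fatty acid binding protein, fell from 10378 to 6370 CPM (-0.70, adjusted p = 0.00348), and Mlycd, Slc25a20 and Acadvl of fatty acid oxidation fell by 0.55, 0.44 and 0.41 on the log2 scale (adjusted p = 0.0110, 0.0132 and 0.0328). Leaving out 1 library ended the call of Lpl in 7 of 12 cases (Glut1 transgenic Tnnt2low and Tnnt2high replicates 1, 2 and 3 and WT Tnnt2low replicate 1, with adjusted p = 0.0523 to 0.138 in edgeR's test). It ended that of Acadvl in 6 cases (all 4 Glut1 transgenic Tnnt2low libraries and Tnnt2high replicates 1 and 2, with adjusted p = 0.0573 to 0.105), and that of Slc25a20 without Tnnt2low replicate 1 (adjusted p = 0.0506). Of 16 targets of NRF1 and GABP, 0 were called higher and 12 lower (0 and 16 by direction alone), at a median of -0.89. The subunits of cytochrome c oxidase Cox5a, Cox6b1, Cox5b and Cox8a fell by 0.95, 1.01, 0.85 and 0.81 on the log2 scale (adjusted p = 0.00130, 0.00141, 0.00141 and 0.00152 in edgeR's test).

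**Figure D5:**
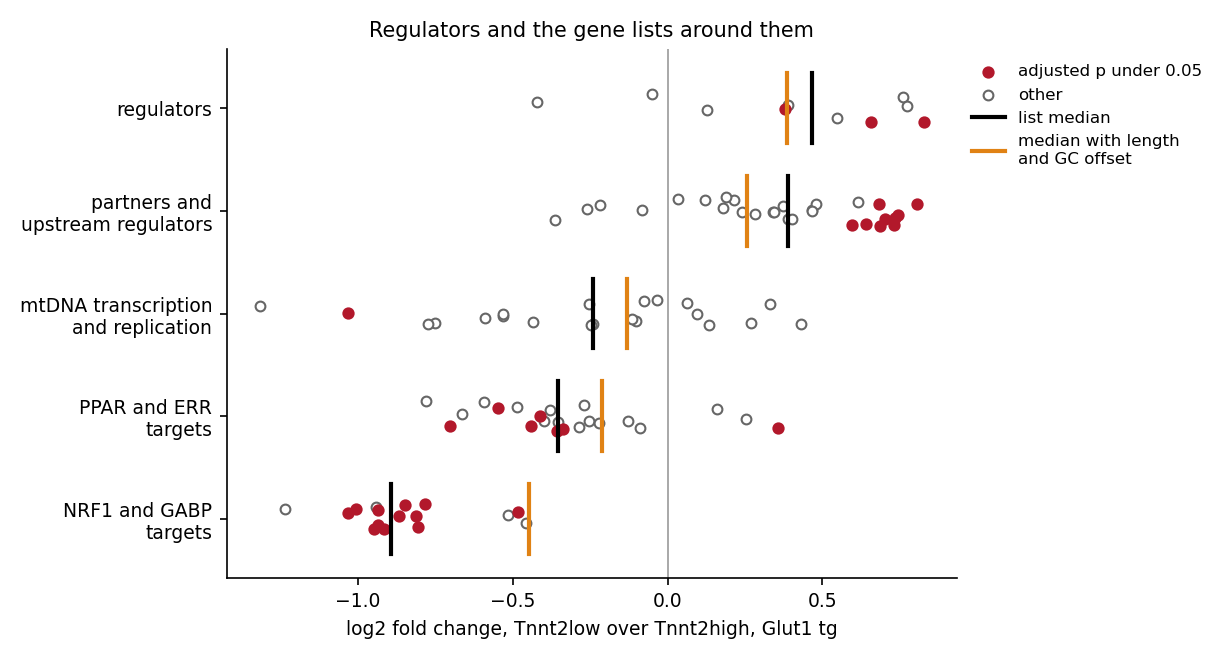
Log2 fold change between Tnnt2low and Tnnt2high cardiomyocytes of Glut1 transgenic hearts for the regulators and the 4 lists around them. Each point is 1 gene, red where the adjusted p is under 0.05, and the black and orange bars are the list's median without and with the offset for length and GC content. The regulators and their partners lie mostly above 0 and the targets below it.

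The lists differ in transcript length, with a median exon length of 5867 bases for the regulators, 7752 for the partners, 4013 for the mitochondrial DNA genes, 3512 for the PPAR and ERR targets and 1569 for the NRF1 and GABP targets. With the offset for length and GC content, the calls were 3 higher and 0 lower for partners, 0 and 0 for the mitochondrial DNA genes, 0 and 1 for PPAR and ERR targets and 0 and 4 for NRF1 and GABP targets. Fabp3 then stood at -0.0058, Cox8a at -0.075 and Cox6b1 at -0.26 on the log2 scale, none of them called, while Cox5a kept its call. The medians then stood at 0.26, -0.13, -0.21 and -0.45, each with the sign it had before. In the other 4 comparisons no gene of these lists was called in edgeR's test (at an unadjusted p under 0.05 there were at most 4 genes of any list in any of them).

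Over the 12 libraries, the levels of the regulators followed each other to different degrees. Pearson's r of log2 CPM was 0.83 for Ppara with Ppard, 0.82 for Ppard with Esrrb, 0.77 for Ppara with Esrrb and 0.74 for Ppargc1a with Ppargc1b. The lowest values were -0.63 for Gabpa with Tfam and -0.60 for Ppargc1b with Esrra. Taken as deviations from the group means, the values for the pairs named were 0.76, 0.89, 0.92, 0.14, -0.62 and -0.10 in the same order, and the lowest of all were -0.86 for Esrrb with Nrf1 and -0.81 for Ppargc1a with Nrf1. These are descriptions over libraries that share hearts and groups.

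Among 7960 other genes that averaged 10 CPM or more, those whose pattern over the 12 libraries was most like a regulator's were named by their r. For Ppargc1a they were Zfp516, Abhd13 and Kdm6b (0.914, 0.914 and 0.911), and for Ppargc1b Clic4, Ryr2 and Clasp1 (0.983, 0.977 and 0.976). For Ppara they were Tmem88b, Myo18a and Cacna1h (0.922 to 0.919), for Ppard G3bp1, Dnajc16 and Ppp2r5b (0.923 to 0.895), and for Esrrb Rprd1b, G3bp1 and Gbf1 (0.920 to 0.871). For Esrra they were Fam195a, Slc25a39 and Mob2 (0.932 to 0.916), and for Esrrg Ccdc50, Spop and Uvrag (0.960 to 0.948). Tmpo and Myom2 stood closest to Nrf1 (0.886 and 0.883), Mcu, Capn7 and Top2b to Gabpa (0.895 to 0.878), and Foxred1, Wdr83 and Thop1 to Tfam (0.942 to 0.935).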

How the data were processed

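For each of 12 libraries the authors deposited raw counts per gene. Their single-end reads were trimmed below Phred 20, aligned with HISAT2 to mm10, and assigned by HTSeq to the joined exons of each gene. Strand use and tool versions, not given in the sources used here, remain unknown. The labels describe an extract of heart tissue, the methods sorted cells, and the methods were followed. The 5 totals in each file that name no gene were left out.

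The analysis used edgeR 4.0.16 under R 4.3.3 (filterByExpr on the 4 groups, TMM scaling, quasi-likelihood test in 1 fit of all libraries, Benjamini-Hochberg adjustment over 12252 genes, called at an adjusted p under 0.05). Other quantities and figures came from Python 3.11.15. Exon lengths and positions came from GENCODE vM21 on mm10, matched for 24021 genes. The alternatives were DESeq2 1.42.0, its size factors, no filter, fewer libraries and leaving out each library. A length and GC offset (loess span 0.3) and a block were others. The block was the heart for the Glut1 transgenic populations. For WT, whose replicates bear the same heart number, the block was the replicate, and the interaction used both. Between genotypes, where no heart is shared, the block was the replicate number, which ties unrelated hearts. The legacy form of edgeR's quasi-likelihood test, which equals the main fit, and its newer form, which was not planned beforehand, were run too. Libraries of the same Glut1 transgenic heart deviated together weakly, with correlations of deviations from group means of 0.107 to 0.226. Libraries of different Glut1 transgenic hearts gave -0.151 to 0.120, a range that overlaps the former. For WT the values were 0.271 for same and -0.271 for different numbers, equal in size because each group holds 2 libraries. For Glut1 transgenic libraries the heart was taken as a pairing given by the labels.

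All 10 regulators are named. Of each list, up to 4 called genes per direction with the smallest p were named, and others where a count or a background made it useful, after their values were seen. The members and lists were chosen with earlier results of these data known. Some genes that these rules name are not reported here.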

Additional observations from a re-analysis of the deposited data

Results flagged for a closer look

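Tfam in Glut1 transgenic Tnnt2high libraries held a sample far from the others. Replicate 3 stood at 36.9 CPM, while the others lay between 55.6 and 59.1 CPM, and the gap was 0.840 of the group's range. Of 20 groups of 4 libraries examined for the 10 regulators, this was the 1 that stood out, and chance alone sets such a mark in about 1 in 20 groups. Without this library the log2 fold change of Tfam in Glut1 transgenic hearts was -0.19 in place of -0.05.

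Esrrb differed in direction between the genotypes in every pair. Tnnt2low cells held more of it in all 4 Glut1 transgenic pairs, by 1.45 to 2.36 times, and less in both WT pairs, at ratios of 0.617 and 0.703. The difference of the log2 fold changes was 1.39, which missed the threshold in edgeR's test (adjusted p = 0.961), where 0% of all genes passed. The libraries of Glut1 transgenic and WT hearts held between 52 and 284 reads of Esrrb. Esrrb was flagged by this pattern of directions itself, and how many of all genes show the same pattern was not counted. Both WT pairs may come from 1 heart.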

How the results depend on the processing

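In Glut1 transgenic hearts, 3 regulators were called between populations, and 1 under the length and GC offset. With the replicate block (here the heart) 6 were called, and 1 to 5 on leaving out 1 library. The offset cut the genes called among all tested from 2052 to 623, and the block gave 2337. Leaving out 1 Glut1 transgenic library gave 1237 to 2025 genes called. In the paired fit, the block changed no call of a regulator other than those of Ppara, Esrrb and Esrrg. Over the 50 log2 fold changes of the regulators, 412 values under other settings kept direction and call, 14 reversed, 6 gained a call and 8 lost 1. The values of edgeR's legacy quasi-likelihood form are among the 412 and could not differ, since that form equals the main fit. The 6 gains and the 8 losses all lay in the Glut1 transgenic comparison of populations. Some of these losses came neither under the offset nor under block with offset, but under other choices of test, filter or libraries. All 14 reversals were of values not called. Under the offset and under block with offset, the values were -0.069 and -0.049 for Ppard in WT populations and -0.0065 and -0.0055 for Gabpa in the interaction. Between genotypes the block was the replicate number alone, which pairs unrelated hearts. Under it and under it with the offset, they were -0.045 and -0.023 for Ppargc1b and -0.56 and -0.57 for Ppara between genotypes in Tnnt2low, and 0.036 and 0.18 for Nrf1 in Tnnt2high. Ppara gave -0.0017 with only the libraries compared, and Tfam in Tnnt2high -0.0031, -0.0054 and -0.029 under offset, block and both.

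On leaving out 1 library, Tfam in Glut1 transgenic populations ran from -0.19 to 0.013. WT populations ran from -0.0093 to 0.52 for Ppargc1b, -0.018 to 0.72 for Ppara, -0.22 to 0.36 for Ppard, -0.18 to 0.57 for Esrrg, -0.69 to 0.42 for Nrf1, -0.085 to 0.34 for Gabpa and -0.33 to 0.016 for Tfam. Between genotypes in Tnnt2low, Ppara ran from -0.32 to 0.42, Esrrg from -0.035 to 0.15 and Nrf1 from -0.30 to 0.82. In Tnnt2high, Esrra ran from -0.11 to 0.16, Esrrg from -0.67 to 0.079, Nrf1 from -0.54 to 0.087, Gabpa from -0.31 to 0.12 and Tfam from -0.16 to 0.19. In the interaction, Esrra ran from -0.23 to 0.044, Esrrg from -0.019 to 0.73, Nrf1 from -0.033 to 1.09, Gabpa from -0.21 to 0.22 and Tfam from -0.065 to 0.28. The cause was not tested. A lone WT library was assumed to vary like the other groups. With 2 WT libraries a population, differences of the size seen in Glut1 transgenic hearts could be missed.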
